A study of Homo sapiens with 6 samples.

Results

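The miR-548 family comprises the miRs whose name starts with hsa-miR-548 followed by a letter, and every such name in the count table was taken as a member. There were 80 members among the 2588 mature miR names listed. A member is a name of the table, one arm of a hairpin where the name ends in 5p or 3p, and no measured value was used to choose it.

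The study depleted RPL24, a protein of the large ribosomal subunit, to ask how this changed miR levels. Small RNA was sequenced from HEK293T, a human embryonic kidney cell line, in 3 libraries labelled RPL24 KD and 3 labelled NC. The KD cells received siPOOLs, defined mixtures of siRNAs, against RPL24 at 50 nM, and the NC cells received non-targeting siPOOLs at that dose. All cells were harvested 72 h after the siPOOLs, as the titles and the protocol give it, although the time field of the labels reads day 72. The protocol text describes a miR-608 plasmid given at 48 h to both groups, 24 h before harvest. The paper, however, presents the sequencing as its own RPL24 KD experiment. It reports no miR-608 in these data, on the ground that HEK293T cells lack it. If the plasmid step applied to these libraries was not determined here. No label says whether the libraries of a group came from separate cultures, so p-values measure the spread between these libraries, which may be technical. RPL24 mRNA is not measured by such libraries, so the knockdown could not be checked in these data. For RPL24 siPOOLs in HEK293T cells, the paper reports reduced RPL24 mRNA and shows a western blot of RPL24.

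Library totals ranged from 398721 to 611745 counts, and 3 counts, the smallest amount treated as measurable, corresponded to 4.98 to 7.50 CPM, the usual counts scaled to library size, here the total after TMM normalization. Intervals and floors cover counting error only. Of 6 miRs that mark tissues other than kidney, 5 had reads, and their sum was 0.0244% to 0.0270% of reads in the RPL24 KD libraries and 0.0335% to 0.0376% in NC. This sum was almost entirely miR-1-3p, a muscle miR with 901 reads (log2 fold change -0.40, adjusted p = 0.0557, edgeR), while miR-133a-3p had 29, miR-451a 5, miR-122-5p 4, miR-142-3p 1 and miR-223-3p 0. The part of this difference in the results that follow was not tested.

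Most miR-548 hairpins derive from MADE1, a short palindromic DNA transposon of the mariner type that spread through primate genomes. Because the ends of a MADE1 copy are inverted repeats of each other, a transcript that runs through a copy folds back into a stem, which Drosha and Dicer can cut into a pair of mature arms. Many copies therefore gave rise to miRs of nearly the same sequence. A mature miR recognises its target mRNAs mainly through its seed, bases 2 to 8 counted from the 5′ end.

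The RefSeq mature sequences, on GRCh38.p14, matched 54 of the 80 names and 12 of the 17 members that had enough reads to be tested. The lines that follow show these 12 in the order of their reads, 5′ to 3′, with the seed in capitals, because several of them differ by few letters.
miR-548o-3p: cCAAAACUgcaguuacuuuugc
miR-548f-3p: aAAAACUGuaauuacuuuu
miR-548k: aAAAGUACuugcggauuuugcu
miR-548b-5p: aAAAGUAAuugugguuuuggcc
miR-548am-3p: cAAAAACUgcaguuacuuuugu
miR-548aq-3p: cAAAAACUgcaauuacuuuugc
miR-548ag: aAAGGUAAuugugguuucugc
miR-548u: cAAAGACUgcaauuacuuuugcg
miR-548p: uAGCAAAAacugcaguuacuuu
miR-548ah-3p: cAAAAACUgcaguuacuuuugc
miR-548j-5p: aAAAGUAAuugcggucuuuggu
miR-548l: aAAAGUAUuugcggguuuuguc

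The other 5 tested members are miR-548e-3p, miR-548d-5p, miR-548h-5p, miR-548ay-5p and miR-548az-5p. The printed sequences fell into 2 types. MiR-548o-3p, miR-548f-3p, miR-548am-3p, miR-548aq-3p, miR-548u, miR-548p and miR-548ah-3p hold ACUG and, after it, UUACUUU, and are called the 3p type here. MiR-548k, miR-548b-5p, miR-548ag, miR-548j-5p and miR-548l start with AAA, hold GUA and lack ACUG, and are called the 5p type. MiR-548o-3p differed from miR-548ah-3p by C2A, miR-548am-3p from miR-548ah-3p by U22C, and miR-548aq-3p from miR-548ah-3p by A12G, each the only difference, with positions counted from 1 at the 5′ end and the base of the first-named miR first. MiR-548am-3p and miR-548ah-3p were identical over their first 21 bases, and miR-548p shared an unbroken run of 19 bases with each of them, shifted towards its own 3′ end. How reads that fit several names were counted is not given in the sources used here, so the split of reads among these names is uncertain.

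The letters of the family were set beside those of other miRs, as a description. The words of 8 letters named here were picked for being frequent among the members. A higher share in the members was built into that choice. Among words of 8 letters, read on the given strand only, AAAAGUAA was in 16 of the 54 members (29.6%) and in 0 of 2316 other human mature miRs of RefSeq. Its reverse complement UUACUUUU was in 14 members (25.9%) and in 3 of the others (0.130%). AAAACUGC was in 12 members (22.2%) and in 0 of the others. The median GC content was 34.1% over the 54 members, from 15.8% to 54.5%, against 52.2% over the other miRs, of which 6.99% were at or below the median of the family. In the 13 member hairpins with both arms in the table, the longest run of unbroken pairing between the arms had a median of 9 bases (range 5 to 20), against 7 bases in 794 other hairpins.

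Several names could not be told apart in the reads. MiR-548aj-5p, miR-548g-5p and miR-548x-5p share the sequence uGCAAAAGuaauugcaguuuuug, shown because it carries 3 names. Their reads in the 6 libraries were nearly the same, with totals of 15, 15 and 14. MiR-548aa and miR-548t-3p had equal counts in every library (6, 5 and 7 reads in RPL24 KD and 1, 6 and 7 in NC), as did miR-548c-5p and miR-548o-5p with 7 reads each and miR-548h-3p and miR-548z with 7 reads each. Counting each such group 1 time would remove 5 names and 75 of the family's 5167 reads.

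In the GENCODE 29 annotation of GRCh38, 72 hairpin genes of the family lie on 22 chromosomes, with at most 8 on any of them. Within a protein-coding gene on the same strand lie 36 of these hairpins, and all 36 are intronic in at least 1 transcript and exonic in 0. A further 21 lie in no gene on either strand. MiR-548o-3p, the most abundant member, is encoded at 2 places, MIR548O (chr7:102405742-102405855, minus strand, opposite PRKRIP1) and MIR548O2 (chr20:38516563-38516632, plus strand) in an intron of RALGAPB, a subunit of a GTPase-activating complex for Ral. Because the mature sequence is the same at both, their reads cannot be told apart. MiR-548f-3p has 5 hairpin copies, in introns of PCDH15, ERBB4, TMEM232 and DMD and opposite CNTNAP2.

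MiR-548k, miR-548e-3p, miR-548b-5p, miR-548am-3p and miR-548aq-3p have 1 hairpin gene each in the annotation, while miR-548d-5p has 2, MIR548D1 and MIR548D2. MIR548K (chr11:70283955-70284070, plus strand) is in an intron of PPFIA1, which encodes a liprin of focal adhesions. MIR548E (chr10:110988926-110989013, plus strand) is in an intron of SHOC2, a scaffold of the Ras-MAPK pathway. MIR548B (chr6:119069047-119069143, minus strand) is in an intron of FAM184A. MIR548AM (chrX:16627012-16627085, minus strand) is in an intron of CTPS2, a CTP synthase, and MIR548AQ (chr3:185767847-185767904, minus strand) is in an intron of IGF2BP2, an mRNA-binding protein. The 3 near-identical 3p miRs miR-548am-3p, miR-548aq-3p and miR-548ah-3p thus come from 3 chromosomes, the last from MIR548AH (chr4:76575551-76575626, plus strand) in an intron of SHROOM3. There are 6 hairpin genes that overlap another miR-548 gene on the opposite strand. The RNA of the host genes was not measured in these libraries.

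Reads were spread over much of the family but concentrated in few members. At least 1 read was found for 66 of the 80 members (82.5%), against 1205 of all 2588 names (46.6%). Of the 66, 35 had reads in all 6 libraries and 31 in 1 to 5 libraries. In a single library, 31 to 36 members had 3 or more reads. Names that could not be told apart in the reads were each counted as detected, which can raise the share of the family. The 5 most abundant members held 58.1% of the 5167 family reads, and the 17 tested members held 87.8%. Even miR-548o-3p, with 1136 reads, was number 123 among the listed names.

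The 14 members with 0 reads were miR-548ad-3p, miR-548ah-5p, miR-548ai, miR-548aj-3p, miR-548ao-5p, miR-548as-3p, miR-548at-5p, miR-548au-3p, miR-548av-5p, miR-548aw, miR-548ax, miR-548bb-5p, miR-548f-5p and miR-548m. For each of them 3 counts, or 4.98 to 7.50 CPM depending on the library, is the level that a count of 0 allows. A further 26 members had 1 to 9 reads in all and never more than 3 in a library. The remaining 23 members below the filter had 10 to 51 reads. They were led by miR-548n with 51 reads (16, 6 and 4 in RPL24 KD and 10, 6 and 9 in NC), miR-548ae-5p with 48 (11, 7 and 5 against 18, 4 and 3) and miR-548i with 47 (7, 13 and 6 against 9, 6 and 6). The groups overlapped in these 3 members.

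In smaller amounts there were miR-548a-3p (38 reads), miR-548ay-3p (36), miR-548aa and miR-548t-3p (32 each), miR-548ab (29), miR-548an and miR-548av-3p (22 each), miR-548b-3p (19), and miR-548j-3p and miR-548s (18 each). With 10 to 15 reads followed miR-548aj-5p, miR-548g-5p and miR-548w (15 each), miR-548x-5p (14), miR-548au-5p and miR-548y (13 each), miR-548ad-5p (12), miR-548ao-3p and miR-548ar-3p (11 each) and miR-548t-5p (10). MiR-548s had 2, 2 and 1 reads in RPL24 KD and 5, 5 and 3 in NC. For miR-548ar-3p there were 1, 1 and 1 reads against 2, 3 and 3. In both, every KD library lay below every NC library, at counts near the floor. Single members at these counts were not tested in the main fit. The alternative without a filter tested 66 members, and some other alternatives tested 18. In each of these, 0 members were DE. Summed over the 63 members below the filter, there were 331 reads in RPL24 KD and 301 in NC.

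The number of members detected was compared between the groups next. At least 1 read was found for 49, 53 and 52 members in the RPL24 KD libraries and for 49, 44 and 51 in the NC libraries. The means were 51.3 and 48.0 members, and the groups overlapped. Depth differed between libraries, so the number expected at the depth of the smallest library, 398721 counts, was also computed. It was 48.4 members on average in RPL24 KD and 45.8 in NC. Counted at 3 or more reads, the KD libraries held 34, 33 and 31 members and the NC libraries 31, 32 and 36, and the direction of the difference in means turned. The groups overlapped under each of these 3 ways of counting.

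The pooled level of the family overlapped between the groups. The 80 members summed to 870, 1050 and 688 reads in RPL24 KD and to 945, 705 and 909 reads in NC. As a share of all reads this was between 0.156% and 0.177% in every library, with exact binomial 95% intervals between 0.146% and 0.190%. In CPM, the RPL24 KD libraries had 1587, 1742 and 1719 and the NC libraries 1649, 1758 and 1719. The means were 1683 ± 84.0 CPM (SD, n = 3) and 1708 ± 55.3 CPM (SD, n = 3), a difference of -0.02 on the log2 scale, which was smaller than the SD within groups of 0.061. With total counts in place of TMM it was -0.07, larger than that SD. The pooled sum is mostly that of its leading members, since miR-548o-3p alone held 20.1% to 23.8% of it. Names ending in 5p held 19.4% to 21.8% of the family reads in a library and names ending in 3p held 54.6% to 58.6%, with the rest under names that give no arm.

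The members with enough reads were then tested one by one. Of the 80 members, 17 passed the edgeR filter on low counts (minimum count 10) and were tested together with all other miRs that passed, 360 in all, by the quasi-likelihood test, with p-values adjusted over all 360. Of the 17, 0 were DE at an adjusted p under 0.05, where 5.00% of all tested miRs were, 3.33% being higher after KD. At an unadjusted p under 0.05 there was 1 member (5.88%), against 23.6% of all tested miRs. The groups did not overlap in 1 member (5.88%), against 27.5% of all. DESeq2 called 0 of the 17 members, against 3.90% of the 359 miRs to which it gave a p-value, and 0 at an unadjusted p under 0.05, against 15.6%.

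In direction, 7 members were higher and 10 lower after RPL24 KD by their log2 fold change, and 47.2% of all tested miRs were higher. The median log2 fold change was -0.01 over the 17 members and -0.01 over all 360. The median absolute log2 fold change was 0.14 over the members and 0.16 over all. Precision differed more than size. The mean count per library had a median of 27.0 over the members against 81.25 over all tested miRs, and their median standard error was 0.24 against 0.15 on the log2 scale. The 95% interval of the fold change included 0 in 16 of the 17 members, yet the intervals reached from -1.10 to 1.15 on the log2 scale, so changes of that size were not excluded for the least abundant members.

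**Figure D1:**
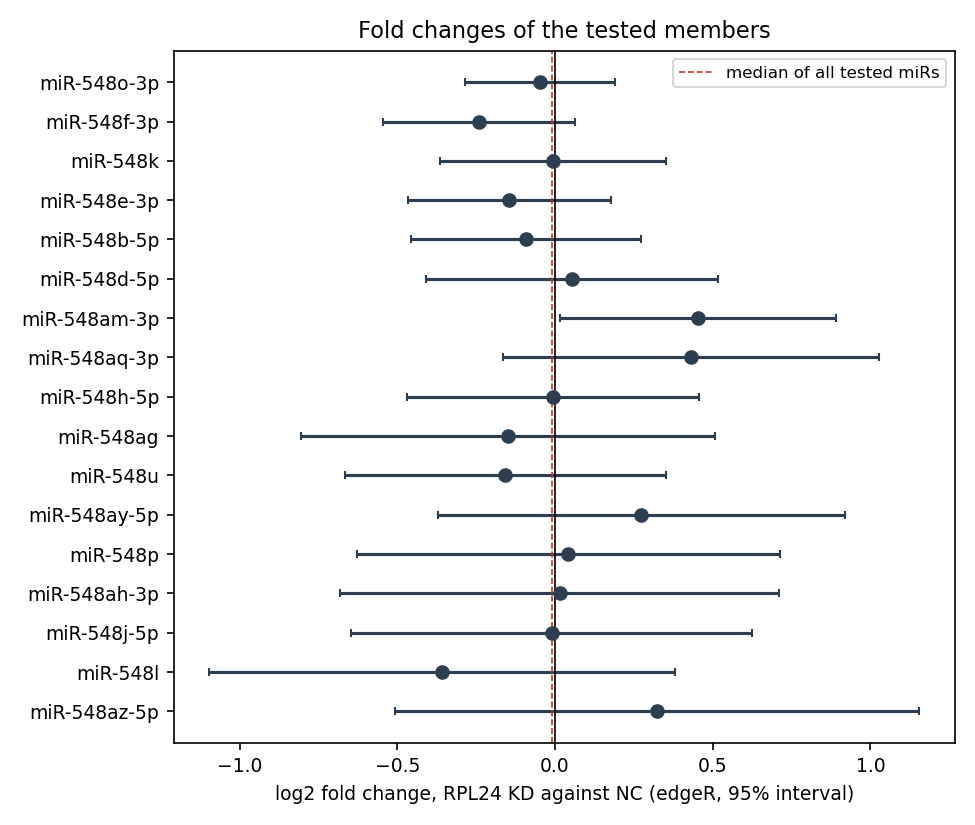
Log2 fold change after RPL24 KD relative to NC for the 17 tested members, ordered from the most to the least abundant, with 95% intervals from edgeR; the dashed line marks the median of all 360 tested miRs (-0.01). The interval of miR-548am-3p, 0.02 to 0.89, is the only one that leaves out 0, and intervals widen towards the less abundant members.

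The most abundant members were the most precisely measured. MiR-548o-3p was at 350, 398 and 345 CPM in RPL24 KD and at 358, 419 and 365 CPM in NC. Its groups overlapped, at 364 ± 29.4 CPM (SD, n = 3) against 380 ± 33.4 CPM (SD, n = 3), a log2 difference of -0.05 with a standard error of 0.11 and a 95% interval from -0.28 to 0.19 (edgeR, adjusted p = 0.847). MiR-548f-3p, the sum of 5 identical hairpin arms, was at 182, 216 and 260 CPM in RPL24 KD and at 241, 287 and 246 CPM in NC. Only the unnumbered KD library reached into the NC range, and the log2 fold change was -0.24 ± 0.14 (standard error; edgeR, adjusted p = 0.350). It was -0.12 without RPL24 KD replicate 1, -0.14 without NC replicate 2 and -0.36 without the unnumbered KD library. MiR-548k was at 159, 141 and 145 CPM in RPL24 KD and 157, 107 and 174 CPM in NC, giving a log2 fold change of -0.01 ± 0.17 (standard error; edgeR, adjusted p = 0.991). In miR-548k the 3 NC libraries enclosed the 3 KD libraries.

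MiR-548e-3p was at 124, 136 and 130 CPM in RPL24 KD and at 148, 120 and 159 CPM in NC. Again the NC libraries spanned the KD libraries, and the log2 fold change was -0.14 ± 0.15 (standard error; edgeR, adjusted p = 0.629). MiR-548b-5p, the leading member whose name ends in 5p, was at 93.0, 88.0 and 79.95 CPM in RPL24 KD and at 89.0, 107 and 87.0 CPM in NC. Its groups overlapped too (log2 fold change -0.09, standard error 0.17). MiR-548d-5p was at 62.0, 83.0 and 79.95 CPM in RPL24 KD and at 54.1, 84.8 and 81.3 CPM in NC, so that in both groups the library numbered 1 was the low one.

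Among the tested members, the clearest separation was in miR-548am-3p. It had 35, 45 and 29 reads in RPL24 KD and 32, 22 and 23 reads in NC, or 63.8, 74.7 and 72.5 CPM against 55.8, 54.9 and 43.5 CPM. Every KD library lay above every NC library. The means were 70.3 ± 5.73 CPM (SD, n = 3) and 51.4 ± 6.86 CPM (SD, n = 3), and the log2 fold change was 0.45 ± 0.20 (standard error; edgeR, unadjusted p = 0.0428, adjusted p = 0.200). The difference did not pass the adjustment over all tested miRs, and DESeq2 did not give it an unadjusted p under 0.05.

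MiR-548aq-3p, which has the same seed, was at 40.1, 78.0 and 67.5 CPM in RPL24 KD and at 57.6, 37.4 and 39.7 CPM in NC. KD replicate 1 and NC replicate 1 crossed, and the log2 fold change of 0.43 had a standard error of 0.28 (adjusted p = 0.395, edgeR). It was 0.69 without RPL24 KD replicate 1, 0.68 without NC replicate 1 and 0.19 without RPL24 KD replicate 2. MiR-548ah-3p, which differs from each of these miRs by a single base, was at 29.2, 34.8 and 19.99 CPM in RPL24 KD and at 22.7, 39.9 and 26.5 CPM in NC. Its groups overlapped, with a log2 fold change of 0.01 (standard error 0.32). Whether the fold changes of these near-identical miRs differ from each other was not tested.

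The names that share the seed AAAAACU were therefore also summed. There were 7 of them, with 468 reads, of which miR-548am-3p and miR-548aq-3p held most. Together they had 144, 196 and 172 CPM in RPL24 KD and 143, 135 and 125 CPM in NC, so that the lowest KD library was barely above the highest NC library. This sum was singled out after its values were seen and is given as a description, with no test, of 1 of the 29 seeds found among the 54 members with a sequence. For the seed AAAGUAA, carried by 11 members with 430 reads including miR-548b-5p and miR-548j-5p, the sums were 146, 126 and 152 CPM in RPL24 KD and 133, 152 and 144 CPM in NC, and the groups overlapped. The seed UGGCCAA, found in miR-548s (18 reads), also separated the groups, but in the other direction. It was at 3.65, 3.32 and 2.50 CPM in RPL24 KD and at 8.72, 12.5 and 5.67 CPM in NC. Each of its KD libraries held fewer than 3 reads. Among the 54 members with a sequence, the seed AAAACUG of miR-548f-3p was also that of miR-548ar-3p, and CAAAACU was found in miR-548o-3p. Seeds of the other 26 members were not examined.

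**Figure D2:**
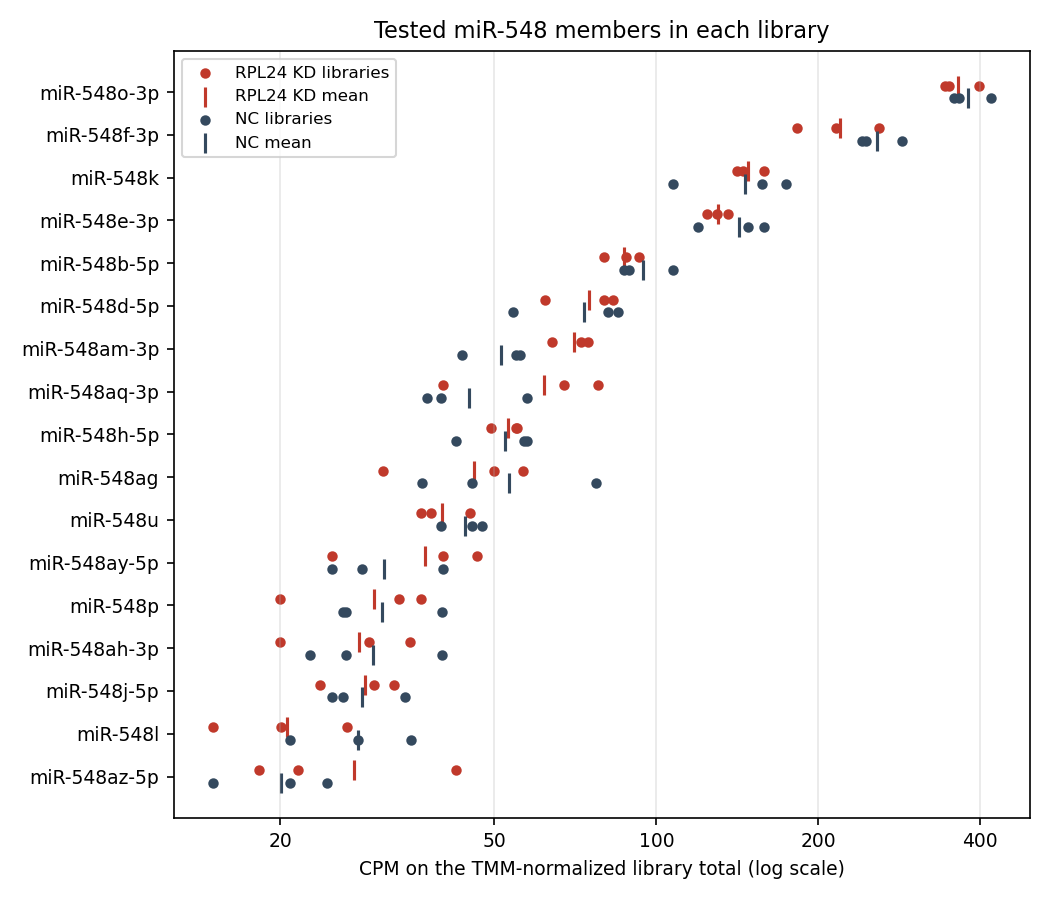
CPM of the 17 tested miR-548 members in each library on a log axis, RPL24 KD in red and NC in blue, with vertical bars at the group means (n = 3 each). MiR-548am-3p is the only member whose 3 KD points, 63.8 to 74.7 CPM, all lie above its 3 NC points, 43.5 to 55.8 CPM.

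The remaining tested members whose names end in 5p overlapped between groups. MiR-548h-5p was at 49.2, 54.8 and 55.0 CPM in RPL24 KD and at 57.6, 42.4 and 56.7 CPM in NC. MiR-548j-5p was at 23.7, 29.9 and 32.5 CPM against 26.2, 24.9 and 34.0 CPM. Both had log2 fold changes of -0.01, with standard errors of 0.22 and 0.30. MiR-548ay-5p was at 40.1, 46.5 and 25.0 CPM in RPL24 KD and at 40.1, 24.9 and 28.4 CPM in NC. MiR-548az-5p, the least abundant of the tested members by reads, was at 18.2, 21.6 and 42.5 CPM against 24.4, 14.96 and 20.8 CPM. The higher KD mean of miR-548az-5p came from the unnumbered KD library, with 17 reads, and its log2 fold change was 0.32 (standard error 0.39).

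Among names without an arm, miR-548ag was at 31.0, 56.4 and 50.0 CPM in RPL24 KD and at 36.6, 77.3 and 45.4 CPM in NC. MiR-548u, of the 3p type, was at 36.5, 38.2 and 44.97 CPM against 45.4, 47.4 and 39.7 CPM. Their log2 fold changes were -0.15 and -0.16, with standard errors of 0.31 and 0.24. MiR-548p was at 36.5, 33.2 and 19.99 CPM in RPL24 KD and at 26.2, 39.9 and 26.5 CPM in NC. MiR-548l, which differs from miR-548k at 4 positions, was at 20.1, 26.6 and 14.99 CPM against 27.9, 34.9 and 20.8 CPM. MiR-548l had the lowest log2 fold change of the 17, -0.36, but with a standard error of 0.34 and an adjusted p of 0.594 (edgeR).

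Reads under the 5p and 3p names of the same miR were far from equal. Both arms are listed for 28 hairpin names, and 15 of these had at least 30 reads over the 6 libraries. A name can stand for several hairpins, so these are shares of the reads of names and not of single hairpins. The 5p arm held more reads in 7 of the 15 and the 3p arm in 8. The higher arm held at least 90% of the reads in 11 of them. MiR-548f had 717 reads from the 3p arm and 0 from the 5p arm, but the 3p sequence lies in 5 hairpins and the listed 5p sequence in 1 of them. In miR-548o and miR-548e the 3p arm held 99.4% and 99.3%. The opposite preference was seen in miR-548d, with 98.2% from the 5p arm, in miR-548h and miR-548az, with 95.9% each, and in miR-548b, with 276 reads from the 5p and 19 from the 3p arm (93.6%). In the hairpins miR-548am and miR-548aq, the 3p arm held 96.9% and 98.2%. The least one-sided was miR-548ay, with 108 reads from the 5p and 36 from the 3p arm (75.0%), a share that lay between 62.5% and 85.2% in single libraries. These shares are of reads assigned to each name, and the uncertain split between near-identical names applies to them as well.

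Other miRs of repeat origin or of primates were set beside the family as values, with no test. The MADE1 relatives miR-570, miR-579 and miR-603, which carry other names, had 41 reads in all, 29 from miR-579-5p, 11 from miR-579-3p and 1 from miR-570-3p, with 0 from miR-570-5p and miR-603. MiR-570-5p has the same mature sequence as miR-548ai, and both names had 0 reads. The 7 names of LINE2-derived miRs all had reads and held 1.41% to 1.64% of a library, more than the 0.156% to 0.177% of the 80 miR-548 names, and 6 of them were tested with 0 called DE. In the primate-specific cluster of chromosome 19, by contrast, 1 of 62 names was detected, with 1 read.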

How the data were processed

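Small RNA libraries of HEK293T cells, 3 RPL24 KD and 3 NC, were used. According to the methods, the authors used Flexbar for trimming and miRExpress 2.1.4 for alignment to miRBase version 21, and they deposited raw read counts per mature miR, not normalized. Groups came from the labels, or from the column name where no label matched the column. In each group, 2 count columns are numbered as in the labels, and the other column, whose number matches no label, is called unnumbered.

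Counts were tested in R 4.3.3 with edgeR 4.0.16, by its quasi-likelihood test (legacy setting off, TMM normalization, filterByExpr with a minimum count of 10, Benjamini-Hochberg adjustment over 360 miRs). A miR was DE at an adjusted p under 0.05. Standard errors are those implied by the F statistic. DESeq2 1.42.0, other scalings, no filter, a replicate block and leaving out each library were alternatives. The script was checked on simulated data. Every member that passed the filter, every other member with at least 10 reads and 3 relatives were named. Hairpin positions came from GENCODE 29 and mature sequences from RefSeq. The members, lists and tests were chosen with earlier results of these data known.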

Additional observations from a re-analysis of the deposited data

How the results depend on the processing

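The number of DE members was 0 under every alternative run: DESeq2's size factors, total counts, no filter (66 members tested), the DESeq2 test, the replicate block, the packaged legacy setting of edgeR, added after seeing the data, and each library left out in turn. Of 204 member fold changes under these alternatives, 169 kept their direction and 35 changed sign, in 10 of the 17 members, and 0 passed the threshold. The lowest adjusted p was 0.0900 (edgeR), for miR-548f-3p with the replicate block, where its log2 fold change was -0.41. MiR-548am-3p stayed between 0.30 and 0.54 on the log2 scale, with adjusted p-values from 0.193 to 0.629 (edgeR and DESeq2), and had an unadjusted p under 0.05 in 3 of 12 alternatives, miR-548f-3p and miR-548aq-3p in 2 of 12 each.

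The numbers 1 and 2 of the libraries did not mark libraries that deviated together (correlation -0.02 over 360 miRs between the deviations of KD 1 and NC 1 from the mean of the 2 numbered libraries of their group, a value that is the same for KD 2 and NC 2 by construction). The replicate block, over the 4 numbered libraries, tested 18 members and called 0, while the calls among all miRs rose from 18 to 52, and it turned the log2 fold change to 0.16 in miR-548k, 0.027 in miR-548h-5p, 0.045 in miR-548j-5p and -0.026 in miR-548az-5p. With a term for the number besides the group, these 4 libraries left little to estimate the spread from. The p-values of that fit rest mostly on spread shared across miRs. What raised the calls was not tested. Among all miRs there were 4 calls without RPL24 KD replicate 2, 7 without RPL24 KD replicate 1 and 29 without the unnumbered NC library, 31 with no filter and 28 with total counts.

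The sign also turned without the filter in miR-548k (0.0029) and miR-548h-5p (0.0027), with DESeq2 in miR-548k (0.013), miR-548h-5p (0.011), miR-548ah-3p (-0.031) and miR-548j-5p (0.0062), and with total counts in miR-548p (-0.0060) and miR-548ah-3p (-0.034). The cause was not tested. With each library left out in turn, the log2 fold change ranged from -0.11 to 0.048 in miR-548o-3p, -0.13 to 0.12 in miR-548k, -0.14 to 0.021 in miR-548b-5p, -0.14 to 0.19 in miR-548d-5p, -0.084 to 0.070 in miR-548h-5p, -0.37 to 0.19 in miR-548ag, -0.10 to 0.26 in miR-548p, -0.17 to 0.27 in miR-548ah-3p, -0.090 to 0.14 in miR-548j-5p and -0.048 to 0.54 in miR-548az-5p. Without a change of sign it ranged from -0.36 to -0.12 in miR-548f-3p, 0.19 to 0.69 in miR-548aq-3p, 0.088 to 0.52 in miR-548ay-5p, -0.59 to -0.18 in miR-548l, -0.21 to -0.071 in miR-548e-3p and -0.24 to -0.087 in miR-548u.

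The pooled log2 difference of -0.02 was -0.070 with total counts, -0.041 for 3p names only, 0.056 for 5p names only, 0.11 for members below the filter only and 0.092 with each member weighted equally (pseudocount 1), and between -0.048 and 0.019 with single libraries left out. The difference in members detected, 3.33, was -0.333 at 3 or more reads and from 1.33 to 4.83 with single libraries left out. Depth limits the precision, since 63 of 80 members were below the filter, and 13 of the 17 tested had at least 10 counts in every library.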
